A study of Caenorhabditis elegans with 40 samples.

Results

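The binding sites of heat shock factor 1 (HSF-1) in heat-shocked and unstressed Caenorhabditis elegans were compared in animals that kept HSF-1 in all tissues. They were taken as all summits, the points of highest signal of a called peak, in the authors' list after heat shock (HS, 34 °C) and in their list at 20 °C (NHS), both from ethanol control animals. The lists held 441 HS and 500 NHS summits, 941 in all, which are all the common summits of the series. An HS and an NHS summit were called a pair when they lay within 100 bp of each other on the same chromosome, the nearest being taken. The remaining summits are called HS-only and NHS-only.

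HSF-1 is a transcription factor conserved from yeast to humans that drives the heat shock response. On proteotoxic stress it forms trimers that bind heat shock elements and switch on genes for chaperones such as the HSP70, HSP90 and small heat shock proteins, while the chaperones themselves and the small protein HSB-1 restrain it. In C. elegans it is also known to act without stress, in development and in the germline.

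The 40 libraries of the series included 8 of HSF-1 chromatin immunoprecipitation and sequencing (ChIP-seq) from ethanol control animals, in 4 groups of 2. The strains were 2. The soma TIR1 strain, JTL611, was HS or NHS and carried hsf-1::aid::gfp, unc-119(ed3) and the transgene ieSi57, in which the eft-3 promoter drives TIR1::mRuby. The germline TIR1 strain, JTL621, was HS or NHS and carried hsf-1::aid::gfp, unc-119(ed3) and ieSi38, in which the sun-1 promoter drives TIR1::mRuby. Every group, the controls included, thus held a TIR1 transgene and HSF-1 with a degron and GFP tag, and the antibody was to GFP. Young adults grown at 20 °C spent 2 h on ethanol plates without auxin, and were then either moved to 34 °C for 30 min (HS) or collected directly (NHS). The labels do not tie the 2 libraries of a group to separate cultures. Every summit name in both lists begins with JTL611, so the positions and scores may be those of the soma TIR1 strain alone. One list was given per condition, with no value per library, so neither replicate spread nor depth is known and no test over samples could be made. The intervals below are exact binomial 95% intervals and cover counting error only. Whole animals were assayed, so a weaker signal in every cell cannot be told apart from binding in fewer cells.

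Most sites were listed at both temperatures, and the strongest almost always were. There were 350 pairs, which took in 79.4% of the HS summits (interval 75.3 to 83.0) and 70% of the NHS summits (65.8 to 74.0). The other summits were 91 HS-only (20.6% of the HS list, 17.0 to 24.7) and 150 NHS-only (30% of the NHS list, 26.0 to 34.2). Of the 50 strongest summits, 48 in the HS list and 47 in the NHS list were paired. Of the 100 strongest, 97 in each list were paired.

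Paired summits lay close together, with a median distance of 6 bp and an upper quartile of 12 bp. In 239 pairs the summits were within 10 bp of each other, and in 14 they had the same position. The 3 widest pairs were 70, 76 and 83 bp apart. The 3 unpaired summits nearest to a summit of the other list lay 162, 173 and 196 bp from it. Few pairs or unpaired summits were thus near the limit of 100 bp.

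Peak scores in the 2 lists were not on a scale known to be shared. The HS scores ran from 40.8 to 322070 with a median of 2884, and the NHS scores from 23.7 to 234251 with a median of 470.5. What a score is relative to is not stated in the sources used here. Each score was therefore turned into its percentile within its own list, where 0 is the weakest and 100 the strongest summit, and a change is the HS percentile minus the NHS percentile. As the lists differ in length and in which summits they hold, a change of percentile describes the order of the sites and does not show that binding rose or fell.

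The unpaired summits were mostly weak ones. The 91 HS-only summits had a median percentile of 17.7 (quartiles 9.43 and 25) in the HS list, in which the paired summits had a median of 59.2 (37.3 and 79.5). The 150 NHS-only summits had a median of 18.3 (8.47 and 31.4) in the NHS list, in which the paired summits had a median of 64.0 (45.5 and 81.9). In the strongest 10% of each list there was 1 HS-only summit among 45, and 3 NHS-only summits among 50. An unpaired summit is one not listed in the other condition, and not one shown to be unbound there.

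**Figure D1:**
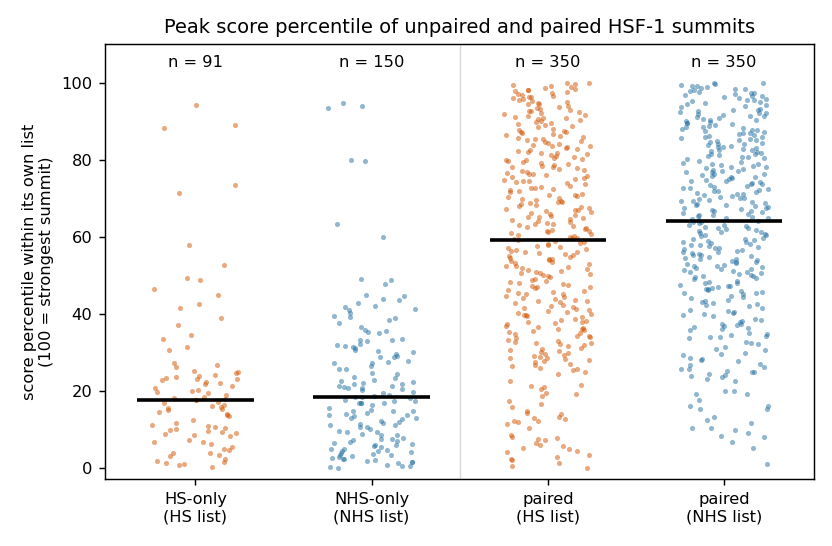
Score percentile within its own list (vertical axis, 100 is the strongest summit) of the 91 HS-only, 150 NHS-only and 350 paired summits, 1 point a summit, with the median as a black line. The paired summits are shown in the HS list and in the NHS list, and both unpaired groups have their medians near 18, with a few points above 80.

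Few unpaired summits were near a summit of the other list, with one within 500 bp for 5 of 91 HS-only and 3 of 150 NHS-only summits. The strongest HS-only summit, at position 2756069 on chromosome IV, had a score of 79645 and rank 27 of 441. The strongest NHS-only summit, at position 2755896, lay 173 bp away with a score of 30349 and rank 27 of 500, and the nearest protein-coding gene to both was Y54G2A.38. The next HS-only summits without a near TSS were at 16548247 on chromosome V (score 33074), in an intron with srbc-65 as the nearest start, and at 425121 on chromosome III (score 30926), nearest to cec-8. The NHS summit nearest to the srbc-65 site was 225897 bp away, and the one nearest to the summit by cec-8 was 683 bp away. Among NHS-only summits, the next were at 7924683 on chromosome V (score 24288), 608 bp from an HS summit, and at 13614867 on chromosome I (score 23258), 729 bp from one.

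HS-only summits lay nearer to sites of the other condition than NHS-only summits did. Of the 91 HS-only summits, 34 had an NHS summit within 5000 bp and the median distance was 32399 bp. Of the 150 NHS-only summits, 17 had an HS summit within 5000 bp and the median distance was 85204 bp. In the peak names of the authors, 21 of the 91 HS-only and 5 of the 150 NHS-only summits shared a peak number with a paired summit, so that they were further summits of a peak present in both lists. With all summits kept, the unpaired groups also differed in how they clustered within their own list. Another summit of the same list lay within 5000 bp of 36 HS-only summits (39.6%, 29.5 to 50.4), of 26 NHS-only summits (17.3%, 11.6 to 24.4) and of 158 of the 350 paired summits by their HS position (45.1%, 39.8 to 50.5). With only the strongest summit of each peak number kept, an alternative chosen after the data were seen, the share was 18.1% of HS-only and 14.3% of paired summits.

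The chromosomes held unlike shares of the groups. Chromosome IV held 8 of the 91 HS-only summits (8.79%, 3.87 to 16.6), 34 of the 150 NHS-only summits (22.7%, 16.24 to 30.2) and 99 of the 350 pairs (28.3%, 23.6 to 33.3). Chromosome V held 26 HS-only summits (28.6%, 19.6 to 39.0), 20 NHS-only summits (13.3%, 8.34 to 19.8) and 97 pairs (27.7%, 23.1 to 32.7). The X chromosome held 7 HS-only summits, 7 NHS-only summits and 38 pairs.

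The sites missing from the HS list were more often at gene starts than the sites in both lists or those added in it. A protein-coding transcription start site (TSS) lay within 1000 bp of 28 of the 91 HS-only summits (30.8%, 21.5 to 41.3), of 90 of the 150 NHS-only summits (60%, 51.7 to 67.9) and of 101 of the 350 pairs by their HS position (28.9%, 24.2 to 33.9). These are called promoter summits below, and all others distal. Within 300 bp the shares were 9.89% of HS-only, 36% of NHS-only and 12.9% of paired summits, and within 2000 bp they were 53.8%, 73.3% and 46.3%. At all 4 distances examined, the NHS-only share was the highest, and within 1000 bp its interval did not overlap the others, with no test over samples possible. Gene starts were taken from the WBcel235 annotation, while no source used here gives the build of the lists. Of 88 chaperone genes, 19 had a summit within 300 bp of a start as deposited, 8 and 9 had one when all summits were shifted 500 bp down or up the coordinates, and 0 and 1 when shifted 5000 bp. Of all 941 summits, 153 lay within 300 bp of a start as deposited, and 137, 151, 147 and 156 with the same shifts. The coordinates thus fitted the chaperone genes, but the fit to all starts, on which the promoter shares rest, was not resolved.

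**Figure D2:**
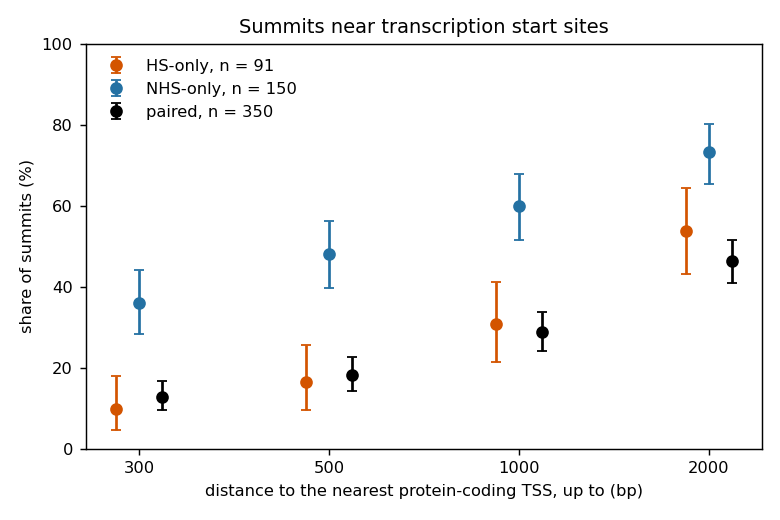
Share of summits (vertical axis, percent) with a protein-coding TSS within 300, 500, 1000 and 2000 bp (horizontal axis), for 91 HS-only, 150 NHS-only and 350 paired summits, with exact binomial 95% intervals as bars. The NHS-only points are the highest at every distance, and at 1000 bp their interval, 51.7 to 67.9%, lies above those of the HS-only and paired summits.

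Since the NHS-only summits were weak, they were set beside paired summits of like score. In the weakest 25% of the NHS list, 58 of 97 NHS-only summits (59.8%, 49.3 to 69.6) and 12 of 29 paired summits (41.4%, 23.5 to 61.1) were promoter summits. These intervals overlap, so a difference was not resolved in that part. In the 25% above it, 30 of 46 NHS-only (65.2%, 49.8 to 78.6) and 27 of 78 paired summits (34.6%, 24.2 to 46.2) were promoter summits. Read the other way, the NHS list lacked an HS partner for 47.4% of its 190 promoter summits (40.1 to 54.7) and for 19.4% of its 310 distal summits (15.1 to 24.2). The HS list lacked an NHS partner for 21.7% of its 129 promoter summits and for 20.2% of its 312 distal summits. In the weakest 25% of the HS list the order was the reverse of that in the NHS list, with a promoter share of 33.8% among the 68 HS-only and 81.0% among the 42 paired summits.

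The placement of promoter summits relative to the start was alike. The median offset was -249.5 bp for HS-only, -186.5 bp for NHS-only and -220 bp for paired summits, where a negative offset is upstream. The summit was upstream of the nearest start in 21 of 28 HS-only, 68 of 90 NHS-only and 77 of 101 paired promoter summits. More than 1 protein-coding gene had a start in reach of 5 of 28 HS-only, 32 of 90 NHS-only and 33 of 101 paired promoter summits, and in such cases a summit cannot be given to 1 gene. By annotation, introns held 36 HS-only summits (39.6%), 32 NHS-only summits (21.3%) and 99 pairs (28.3%). Few lay in exons: 1 HS-only summit was in a 5' UTR, 1 in a 3' UTR and 0 in coding exons, against 8, 5 and 4 NHS-only summits.

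The HS-only promoter summits with the highest scores were at genes of varied function. The strongest was downstream of the start of Y71G12B.33, in an intron on chromosome I (position 1662879, score 8821, rank 127 of 441), and an NHS summit lay 793 bp away. The next were at unc-82, a muscle protein kinase gene (score 1783, rank 258), and at scp-1, which encodes a regulator of sterol-responsive transcription factors (score 929, rank 294). Those at ubql-1, a ubiquilin gene of protein degradation (score 593), and F55C9.6 (score 556) followed. Genes with a summit in the HS list alone numbered 28 of 19973 protein-coding genes (0.14%). Among them were 3 F-box genes, fbxa-39, fbxa-47 and fbxa-48, and the collagen gene col-88. Genes of the srh, srw and srx families were also among them: srh-104, srh-141, srh-181, srh-182, srw-77 and srx-93. At F54F12.2 the summit was a paired one, with its NHS member beyond 1000 bp of the start.

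The NHS-only promoter summits included germline, translation and chaperonin genes. The strongest was shared by hrde-1, which encodes a nuclear Argonaute of inherited small RNA silencing, and C16C10.13 (chromosome III, position 4176380, score 929, rank 184 of 500). The next was between cbd-1, an eggshell protein gene, and sec-31, a vesicle coat gene (score 763, rank 201). Those of dnj-19, a J-domain cochaperone gene, with nhr-47 (score 446, rank 256), of cct-3, a chaperonin subunit gene, with F54A3.6 (score 410, rank 262), and of snpc-3.4 (score 371, rank 277) followed. Genes with a summit in the NHS list alone numbered 121 of 19973 (0.606%). Genes with a summit in both lists numbered 133 (0.666%), with any HS summit 161 (0.806%) and with any NHS summit 254 (1.27%).

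Among the pairs, the order of the sites was much the same at both temperatures, except at a group of promoters that stood far lower in the HS list. The median change over the 350 pairs was -1.17 points (95% interval of the median -1.89 to -0.42), with a range of -65.4 to 31.8. A change of 25 points or more was taken as a shift. Upward shifts numbered 2 of 350 (0.571%), and downward shifts 40 (11.4%). The pairs just inside and just outside of the downward limit were at -25.97 and -24.3 points, both distal. Of the 20 strongest summits of each list, 18 were in pairs with both members in the first 20. Of the 50 strongest, 44 were.

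Downward shifts were concentrated at promoters. Of the 101 promoter pairs, 34 stood at least 25 points lower in the HS list (33.7%) and 1 stood as much higher. Of the 249 distal pairs, 6 stood lower by that much (2.41%) and 1 higher. The median change was -3.62 points (-14.9 to -1.13) for promoter and -0.73 points (-1.32 to 0.09) for distal pairs, and the lower quartile was -34.8 for promoter and -5.13 for distal pairs. With a shift of 10 points, 44.6% of promoter pairs stood lower and 8.91% higher, against 10.4% and 12.4% of distal pairs. Spearman's rho between the percentiles was 0.63 over promoter pairs and 0.93 over distal pairs, given as a description over sites of the same lists. Ranked among the 350 pairs alone, so that list length plays no part, 54 of 101 promoter pairs stood lower in the HS list, with a median of 4 places, while 154 of 249 distal pairs stood higher, with a median of 5 places. By these ranks the promoter median was -1.15 percentile points with an interval that spanned 0 (-8.02 to 3.72), and 23.8% of promoter and 1.61% of distal pairs stood at least 25 points lower.

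The contrast was present in each part of the NHS list that a downward shift of 25 points could reach in number. By NHS rank, in the second weakest 25% of the list, 10 of 27 promoter and 1 of 51 distal pairs stood at least 25 points lower in the HS list. In the 25% above that, 18 of 39 promoter and 5 of 84 distal pairs did. In the strongest 25%, 6 of 23 promoter and 0 of 97 distal pairs did. In the weakest 25%, 0 of 12 and 0 of 17 did, where a difference of that size was out of reach.

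**Figure D3:**
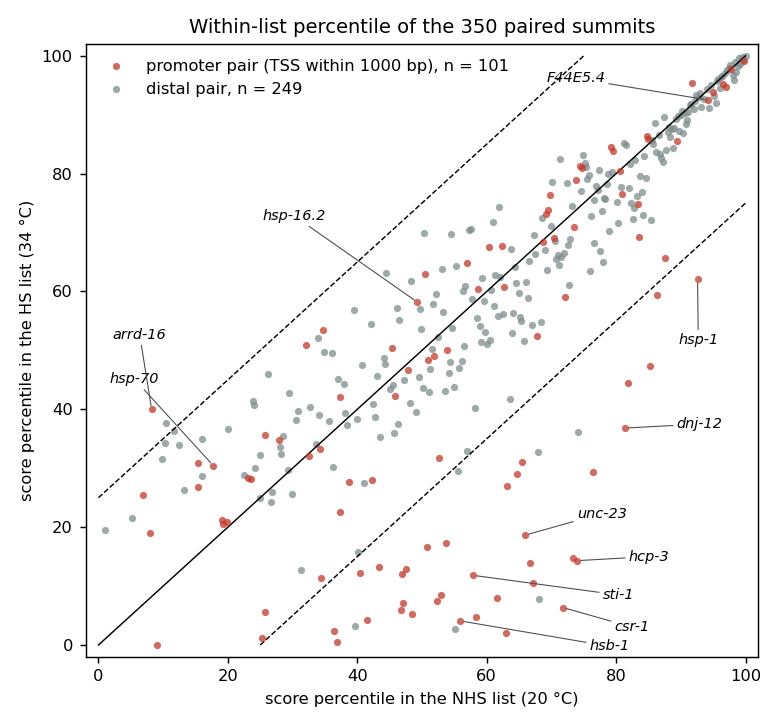
Score percentile of the 350 pairs in the HS list (vertical axis) against that in the NHS list (horizontal axis), with 101 promoter pairs in red and 249 distal pairs in grey. The solid line marks equal percentiles and the dashed lines a change of 25 points; 34 red and 6 grey points lie on or below the lower dashed line, and 1 of each on or above the upper one.

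The 6 promoter pairs with the largest downward change were mainly at genes of the germline, of chromosome segregation and of protein folding. The largest was in an intron where csr-1, an Argonaute gene of the germline, overlaps frpr-10, at position 7958385 on chromosome IV. Its score was 129 in the HS list (rank 413 of 441) and 1603 in the NHS list (rank 142 of 500), a change of -65.4 points. The pair at egg-5, a gene of egg activation, had a score of 78.2 in the HS list (rank 432) and 911 in the NHS list (rank 186), a change of -60.9.

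Next was the pair upstream of hcp-3, the gene of the histone H3 variant of centromeres. It had a score of 219 in the HS list (rank 378) and 1800 in the NHS list (rank 131), a change of -59.6. The pair at F19B2.5 had a score of 222 in the HS list and 1764 in the NHS list, a change of -58.6. Those at cct-8, a chaperonin subunit gene that shares the site with Y55F3AR.2, and at klp-7, a kinesin gene of the mitotic spindle, changed by -56.7 and -53.6 points. In these 6 pairs the HS percentile was between 2.05 and 14.8, so all were in the weakest part of the HS list and above the middle of the NHS list. Besides the chaperone, proteasome and hsb-1 sites described below, the other promoter pairs that stood at least 25 points lower were at lin-35 with vps-51, act-2, icd-1 with vps-32.1, ftt-2, ubc-9, cyn-7 with bath-36, skih-2 with F01G4.4, cpt-2 with C08F8.9, Y38E10A.22 with Y38E10A.24, Y43F8B.2, ZK1290.5 and Y62F5A.12. Among these, lin-35 encodes the retinoblastoma protein, act-2 an actin, cyn-7 a cyclophilin and ubc-9 the SUMO-conjugating enzyme.

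The largest upward changes were smaller than the largest downward ones. The first was in an intron by arrd-16, an arrestin domain gene, at position 12484034 on chromosome III. It had a score of 1553 in the HS list (rank 265) and 65.9 in the NHS list (rank 459), a change of 31.8 points. The next promoter pairs were at nhr-247, a nuclear hormone receptor gene (18.8 points), K01A2.5 (18.7), C08E8.5 (18.6) and T28A11.18 (15.6), and the sixth was at hsp-70. The distal pairs with the largest upward change were at 18718352 on chromosome V in an intron with Y17D7C.2 as the nearest gene (27.3 points), at 15843261 on chromosome IV (24.6) and at 6434218 on chromosome II (24.1). The distal pairs with the largest downward change were at 12944751 on chromosome II in a coding exon of F58G1.7 (-60.4 points), at 14033297 on chromosome IV (-52.4) and at 16929849 on chromosome X (-38.0).

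The sites of the inducible small heat shock protein and HSP70 genes stood about as high or higher in the HS list. Small heat shock proteins hold unfolded proteins in a soluble state. Of 17 such genes, 6 had a summit in both lists (35.3%, against 0.666% of all protein-coding genes), at 3 sites. All 6 had a higher percentile in the HS list, against 39 of 133 genes with summits in both lists over the whole genome. The 2 sites shared by copies of hsp-16.1 and hsp-16.48 on chromosome V had HS scores of 19033 and 19557 (ranks 72 and 69) and NHS scores of 2667 and 2541 (ranks 103 and 105). Their changes were 4.30 and 5.39 points. The site between hsp-16.2 and hsp-16.41 had a score of 4564 in the HS list (rank 185) and 455 in the NHS list (rank 254), a change of 8.88 points. All 3 changes were well under the 25 points of a shift. The copies are near-identical in sequence, so reads may be shared between the 2 sites. The seventh gene, sip-1, had an NHS summit only, 738 bp downstream of its start (score 165). That summit is shared with sly-1, taf-11.3 and urm-1, of which urm-1 has the nearest start.

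The HSP70 and HSP110 genes, which encode the central folding chaperones, were split. The inducible HSP70 genes F44E5.4 and F44E5.5 share 1 promoter site, which had the highest score among the HSP70 and HSP110 genes in both conditions. The score was 55981 in the HS list (rank 34) and 25068 in the NHS list (rank 30), a change of -1.69 points. The inducible gene hsp-70 had a score of 748 in the HS list (rank 307) and 93.3 in the NHS list (rank 411.5, a tie), a change of 12.7 points, and hsp-4, the endoplasmic reticulum BiP gene, had an HS summit only (score 321, rank 356). The constitutive gene hsp-1 stood lower, with a score of 5629 in the HS list (rank 168) and 21244 in the NHS list (rank 38), a change of -30.5 points. The HSP110 gene hsp-110, which shares its site with the proteasome gene rpn-3, changed by -14.2 points, and the mitochondrial HSP70 gene hsp-6 by -39.9 points. The median over the 6 genes in both lists was -7.97 points, against -14.2 points over all 133 genes with summits in both lists.

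HSP90 and its cochaperones, which fold and activate client proteins such as kinases, had their strongest sites lower in the HS list. A summit was listed in both conditions for 5 of 12 genes (41.7%, against 0.666% of all protein-coding genes). The strongest of each of the 5 stood at least 25 points lower, against 53 of the 133 genes over the whole genome. The site of hsp-90 had a score of 2535 in the HS list (rank 233) and 4496 in the NHS list (rank 75), a change of -37.9 points. It is shared with C47E8.4, the nearer start. A second summit, 34 bp upstream of the hsp-90 start, was HS-only and weak (score 171, rank 396). The site of sti-1, the adaptor between HSP70 and HSP90, had a score of 183 in the HS list (rank 389) and 693 in the NHS list (rank 211), a change of -46.1 points. The sites of ahsa-1, an activator of the HSP90 ATPase, of sgt-1, a cochaperone with tetratricopeptide repeats, and of fkb-6, an immunophilin, changed by -40.8, -36.4 and -34.1 points. They are shared with C01G10.7, btbd-10 and F31D4.2, and at ahsa-1 and fkb-6 the other gene has the nearer start. The sgt-1 site was rank 439 of 441 in the HS list, so it was nearly the weakest summit there.

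Other cochaperones of HSP70 followed the same order. Both BAG domain genes, whose products release nucleotide from HSP70, stood lower. The site of unc-23 had a score of 304 in the HS list (rank 359) and 1037 in the NHS list (rank 171), a change of -47.3 points, and that of bag-1 changed by -36.4 points. Of 29 J-domain genes, 2 had an HS summit (6.90%) and 3 an NHS summit (10.3%), against 0.806% and 1.27% of all protein-coding genes. The 2 in both lists were dnj-12 and dnj-13, which share their sites with mtx-1 and F54D5.9 and have the nearer start. The site of dnj-12 had a score of 1230 in the HS list (rank 279) and 2940 in the NHS list (rank 94), a change of -44.5 points. That of dnj-13 had 4711 in the HS list (rank 180) and 5080 in the NHS list (rank 69), a change of -27.1 points.

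Of 14 genes of the CCT chaperonin, which folds actin and tubulin, and of prefoldin, 2 had an HS summit (14.3%) and 5 an NHS summit (35.7%), against 0.806% and 1.27% of all protein-coding genes. Over all genes, too, more were in the NHS list alone (121) than in the HS list alone (28). The 2 in both lists were cct-8 and cct-5, which changed by -56.7 and -37.2 points. The other 3, cct-3, cct-7 and pfd-1, had NHS summits with scores of 410, 238 and 72.0. At each of these 5 genes the site is shared with a gene whose start is nearer. In the order named, these are Y55F3AR.2, F25F2.1, F54A3.6, T10B5.4 and F01G4.6. The counts for this list thus rest on taking any start within 1000 bp. The mitochondrial chaperonin gene hsp-60 shares a site with Y22D7AL.10, with a score of 2095 in the HS list (rank 245) and 2995 in the NHS list (rank 92), a change of -37.2 points. The site of hsb-1, the gene of the HSF-1 inhibitor, shared with let-99, had a score of 97.8 in the HS list (rank 423) and 632 in the NHS list (rank 221), a change of -51.8 points, and the other 3 genes of its list of HSF-1 regulators had no summit.

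**Figure D4:**
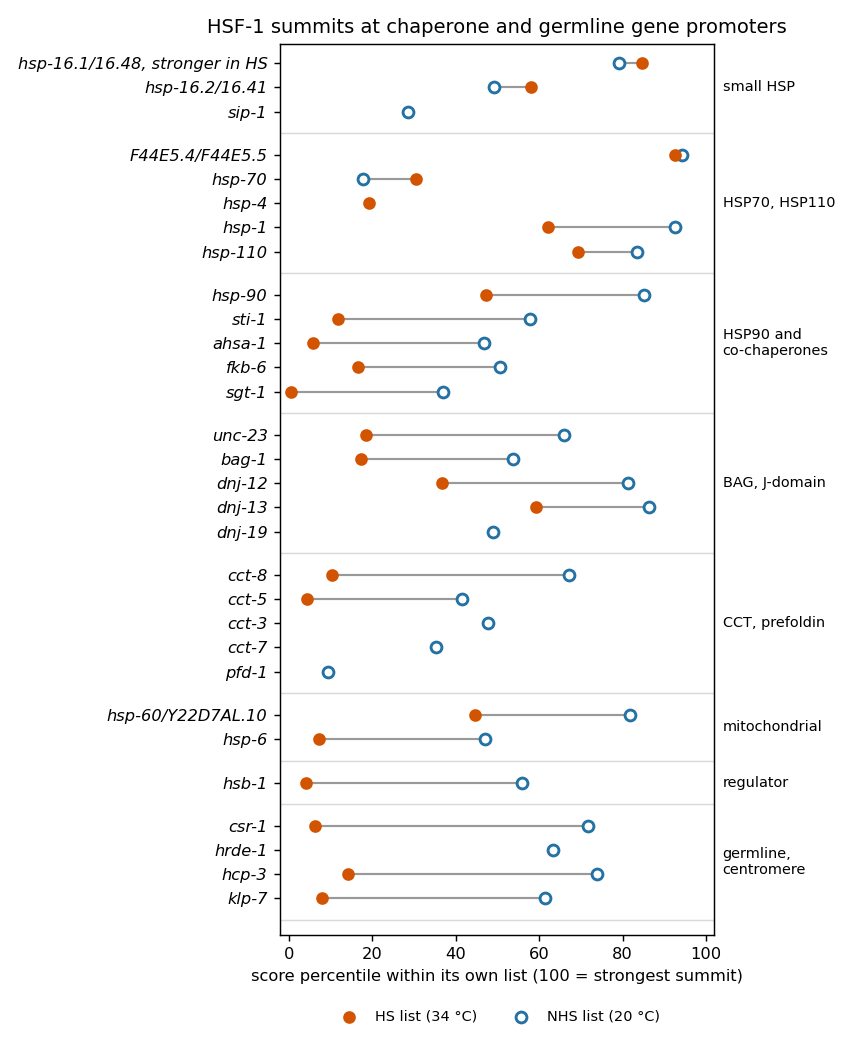
Score percentile within its own list (horizontal axis) of the strongest summit at chaperone, regulator and germline genes, in the HS list (filled) and in the NHS list (open), with a line joining the values of a gene. The small heat shock protein sites and hsp-70 have the filled point to the right, F44E5.4 has both near 93, and the HSP90, BAG, J-domain, CCT and mitochondrial genes have it to the left; genes with 1 point were in 1 list.

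Genes of protein degradation and translation had some sites, which are read against shares of 0.806% of all protein-coding genes with an HS and 1.27% with an NHS summit. Of 34 proteasome and ubiquitin genes, rpn-2, rpn-3 and ubq-1 (8.82%) had summits in both lists, with changes of -47.0, -14.2 and -53.5 points. Of 81 ribosomal protein genes, 2 had an HS summit (rpl-15 and rpl-20, 2.47%) and 6 an NHS summit (7.41%), with rpl-3, rpl-31, rps-22 and rps-26 in the NHS list alone. The rpl-15 summits were 196 bp apart and thus not a pair. At rpl-15, rpl-20, rps-22 and rps-26 the site is shared with a gene whose start is nearer. In the order named, these are K11H12.8, Y17G9B.5, F53A3.7 and tmem-107, so these counts rest on taking any start within 1000 bp. Of 16 genes of the endoplasmic reticulum, hsp-4 was in the HS list alone and pek-1, which encodes a sensor kinase of unfolded proteins, in the NHS list alone (score 139).

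Few germline genes had a summit in either list, but in several of the gene lists below the share was above that of all genes. Of all protein-coding genes, 161 had an HS summit (0.806%) and 254 an NHS summit (1.27%). Of 27 germ granule and small RNA genes, 1 had an HS summit (csr-1, 3.70%) and 4 had an NHS summit (14.8%). Of these, glh-1 (a germ granule helicase gene), hrde-1 and mex-5 (a regulator of embryonic polarity) were in the NHS list alone. Genes outside of that list, named after their values were seen, went both ways. In the HS list alone were pid-3, a gene of the piRNA pathway, with spe-47 (score 159) and rrf-2 (score 61.0). In the NHS list alone were ppw-1, simr-1, alg-5, vig-1, mip-2 and pos-1. The site of mex-5, shared with the cohesin gene rec-8, was weak, with a score of 157. Of 23 kinetochore and spindle genes, hcp-3 and klp-7 (8.70%) had summits in both lists, as described. Of 23 genes of meiotic chromosome structure rec-8 alone had one, in the NHS list (4.35%). Of 72 histone genes, his-5, his-6 and his-39 shared 1 site in both lists, with a change of 9.93 points. In addition, his-67 and his-68 shared 1 NHS-only site, so that 4.17% of histone genes had an HS and 6.94% an NHS summit. None of the 6 vitellogenin genes, which encode yolk proteins of the intestine, had a summit.

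Few members of large gene families were listed, at shares above or below those of all genes. Of 322 F-box genes, 5 had an HS summit (1.55%, against 0.806% of all genes) and 2 an NHS summit (0.621%, against 1.27%). Of 269 nuclear hormone receptor genes, 2 had an HS summit (0.743%) and 3 an NHS summit (1.12%). Of 156 collagen genes, 2 had an HS summit (1.28%) and 1 an NHS summit (0.641%). The site of col-52 was among the strongest of both lists, with rank 11 in the HS list and rank 12 in the NHS list.

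The change of order differed between the authors' tissue classes, which name summits in regions lost on depletion of somatic HSF-1 (soma), of germline HSF-1 (germline) or in both cases (shared). The 91 HS-only summits were 16 soma, 20 shared, 41 germline and 14 in no class. These were 17.6%, 22.0%, 45.1% and 15.4%, against 14.5%, 58.3%, 20.9% and 6.35% of all HS summits. The 150 NHS-only summits were 34 soma, 22 shared, 64 germline and 30 in no class. These were 22.7%, 14.7%, 42.7% and 20%, against 9.4%, 48.4%, 35.8% and 6.4% of all NHS summits. Of the pairs by their class at 20 °C, the 115 of the germline class had a median change of 4.63 points (1.24 to 6.92). The 220 shared pairs had a median of -2.03 points (-3.25 to -1.20), and the 13 soma pairs -35.2 points (-47.3 to -18.5), of which 9 stood at least 25 points lower. By their class after heat shock, the 51 germline pairs had a median of 4.24 points with an interval that spanned 0 (-0.42 to 7.72). By that class the 237 shared pairs had a median of -0.62 points (-1.25 to 0.09), and the 48 soma pairs -29.2 points (-36.4 to -15.2). The 14 pairs whose HS summit was in no class had a median of -52.1 points, and all 14 stood lower in the HS list, among them csr-1, hcp-3, klp-7, egg-5, rpn-2, ubq-1 and hsb-1. As those summits had low HS scores, with a median percentile of 7.05, peak strength and class cannot be told apart here.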

How the data were processed

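The files analysed were the authors' list of common HSF-1 summits for each condition and their 6 class lists. Each row holds a position, a peak name and, as column 5, a peak score of the authors, deposited with no statement of what it is relative to. The submitters' processing notes name Bowtie2 and MACS2 with no version. No source used here states the genome build, the filters or any pooling. Summit names begin with JTL611, the soma TIR1 strain, so the scores may come from that strain alone. Depth is unknown.

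Summits were paired to the mutual nearest within 100 bp, scores became within-list percentiles (ties averaged), and genes were assigned by any protein-coding TSS within 1000 bp (WBcel235, Ensembl release 115, 19973 genes). Some chaperone starts fitted the coordinates (19 of 88 within 300 bp), while the fit to all starts was not resolved: 153 summits lay within 300 bp as deposited, and 137 to 156 when moved by 500 or 5000 bp. Shares have exact binomial intervals, medians order-statistic intervals. On simulated lists 350 of 350 planted pairs were recovered and 0 of 90 new summits paired. Planted summits were moved by less than the pairing limit and new ones placed far from any NHS summit. That outcome was nearly fixed in advance, so it checks the code and not how well real, clustered summits are paired.

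The members and the 19 gene lists were chosen with earlier results of these data known. Named were the 5 strongest promoter and 3 strongest distal summits of each unpaired group, the 6 promoter and 3 distal pairs with the largest change each way, every listed HSP70, small heat shock protein, HSP90, BAG and HSF-1 regulator gene, and up to 3 genes of each other list; others were named after their values were seen. Of the list symbols 4 had no match. No sequence was used here. Python 3.11.15, pandas 2.3.3, numpy 2.4.6, scipy 1.17.1 and matplotlib 3.10.9 were used.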

Additional observations from a re-analysis of the deposited data

How the results depend on the processing

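Of 99 values from 15 alternative settings for 17 results, 66 moved by less than their interval (counts by less than 1.5 times), 33 moved more, and 0 called values changed sign. With only scores at or above the median of each list there were 201 pairs, with a promoter share of 18.4%. With a TSS distance of 500 bp the promoter shares were 16.484% of HS-only, 48% of NHS-only and 18.3% of paired summits, 45.3% of promoter pairs stood 25 points lower in the HS list and 0 higher, their median change was -21.4 points, and 98 genes had an HS summit. With 2000 bp the shares were 53.8%, 73.3% and 46.3%, 22.2% of promoter pairs stood lower and 0 distal pairs higher, and 283 genes had an HS and 408 an NHS summit. With the nearest TSS only, 16 chaperone genes had an HS and 15 an NHS summit, against 26 and 30 with any TSS. Ranked among pairs alone, 23.8% of promoter pairs stood lower, 2.41% of distal pairs higher, the promoter median was -1.15 points with an interval that spanned 0 (-8.02 to 3.72), and the distal median was 1.43 points, of the other sign than -0.73. With a shift of 10 points, 44.6% of promoter pairs stood lower and 8.91% higher, and 10.4% of distal pairs lower and 12.4% higher. With 50 points, 8.91% of promoter pairs stood lower and 0 higher, and 0.803% of distal pairs lower and 0 higher. With neighbours within 2000 bp, 8% of NHS-only summits clustered. With the strongest summit of each peak number, chosen after seeing the data, the distal median was -1.66 points. Under that setting 18.1% of HS-only and 14.3% of paired summits clustered, while the NHS-only share, 16.234%, moved by less than its interval. These movements follow from the settings' own construction or their cause was not tested.

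No paired analysis was possible because no list gives a value per library, and for the same reason no replicate was left out. With no genome sequence used here, the planned heat shock element search was not run. The unknown score scale, depth and replicate spread limit every comparison to the order of sites within each list.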

Other observations

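Some summits lay beside non-coding RNA genes. A small nuclear RNA gene (snRNA, of the splicing machinery) was within 500 bp of 0 of 91 HS-only, 7 of 150 NHS-only and 2 of 350 paired summits by their HS position. For small nucleolar RNA genes, which guide modification of ribosomal RNA, the counts were 0, 6 and 0, for microRNA genes 0, 4 and 0, and for ribosomal RNA genes 0, 2 and 0. Genes of the broad class of other non-coding RNAs were within 500 bp of 5 HS-only (5.49%), 21 NHS-only (14%) and 23 paired summits (6.57%). A piRNA gene was that near to 0 HS-only, 3 NHS-only (2%) and 11 paired summits (3.14%), and a pseudogene to 2 HS-only (2.20%), 3 NHS-only (2%) and 3 paired summits (0.857%). A long intergenic RNA gene was within reach of 1 summit of each group, and an antisense RNA gene of 0. A transfer RNA gene was that near to 0 HS-only, 0 NHS-only and 1 paired summit. Such genes often lie near or within protein-coding genes, and NHS-only summits were nearer to protein-coding starts as well, so the counts are not independent of that. No difference here was tested, since no list gives a value per library.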
